A study of Oryctolagus cuniculus with 24 samples.

Results

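The genes described here encode inhibitors of RAS-ERK signalling and of the related p38 and JNK pathways: Sprouty and SPRED proteins (SPRY1, SPRY2, SPRED1) and dual-specificity phosphatases (DUSP1, DUSP2, DUSP4, DUSP5, DUSP6, DUSP10). Of these 9 genes, 7 had a probe on the rabbit array, with 15 probes among 42089, and 28919 genes or unnamed targets were tested in all. SPRY2 and DUSP2 had no probe that could be named as theirs and were not analysed. Members were found by gene name, or by the RefSeq accession or gene number that the array files give for a probe, and a gene's probes were averaged. Probes that the files name only by a transcript identifier with no such match stayed unnamed, so further probes of these genes may lie among them.

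ERK is the last kinase of a cascade in which RAS activates RAF, RAF activates MEK and MEK activates ERK. Sprouty and SPRED proteins act early, on the receptor, RAS and RAF steps, whereas dual-specificity phosphatases remove the activating phosphates from ERK or from its relatives p38 and JNK. Many of these inhibitors are transcribed when ERK is active, which limits how long the signal lasts, and in lymphocytes and monocytes they are known as early response genes.

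Peripheral blood mononuclear cells (PBMCs), a mixture of lymphocytes and monocytes, came from the blood of 4 rabbits (New Zealand White, adult, female), which the labels number 1, 2, 4 and 5. Cells of each rabbit were mock-stimulated with buffer, stimulated with bacterial lipopolysaccharide (LPS) at 1 µg/mL, or stimulated with phorbol myristate acetate (PMA) at 10 ng/mL together with ionomycin at 1 µg/mL, and were harvested after 4 h (T4) or 24 h (T24). LPS is sensed by TLR4, which in blood is found mainly on monocytes, whereas PMA activates protein kinase C and ionomycin lets calcium into the cell, a combination that bypasses the antigen receptor of T cells. The 6 stimulation and time groups held 4 arrays each, 1 per rabbit. Levels are log2 signals with the median of the array set to 0, and a difference was called at an adjusted p under 0.05 (limma, Benjamini-Hochberg over all genes tested).

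Between 51.4% and 62.3% of the spots on an array were well above background. CD2, CD5, LCK and CD8A of T cells, MS4A1, CD79B and BLNK of B cells, and CD14, CD68 and ITGAM of monocytes were well above background on all 24 arrays. The arrays lay on 3 slides of 8, each with all 6 groups. Within each slide, every called difference of a member between stimulations of a time, or between times in mock-stimulated cells, had the same sign as over all arrays.

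The signal of each gene came from 60-base probes, and 1 probe per gene is shown because a level means only what these bases captured. Letters are from the array files, 5′ to 3′, and positions are theirs, on the rabbit build oryCun2. Capitals mark the 13 bases that a DUSP6 and a DUSP10 probe share, the longest run common to probes of different members. Placed side by side without gaps, probes of these 2 genes matched at 27 bases at most. No other probe on the array shared 20 bases in a row with any of the 15.
SPRY1: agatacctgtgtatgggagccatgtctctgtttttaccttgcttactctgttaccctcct
SPRED1: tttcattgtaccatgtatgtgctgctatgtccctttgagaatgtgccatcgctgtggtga
DUSP1: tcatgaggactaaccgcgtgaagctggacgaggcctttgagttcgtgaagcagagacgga
DUSP4: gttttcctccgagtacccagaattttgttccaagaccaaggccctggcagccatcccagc
DUSP5: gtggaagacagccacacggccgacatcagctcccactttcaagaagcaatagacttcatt
DUSP6: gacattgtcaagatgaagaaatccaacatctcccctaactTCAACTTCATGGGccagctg
DUSP10: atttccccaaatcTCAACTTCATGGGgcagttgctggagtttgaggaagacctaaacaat

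The SPRY1 probe lay at chr15:99190167-99190226 on the plus strand. The SPRED1 probe shown lay at chr17:33789098-33789157 on the minus strand, and a second one at chr17:33789174-33789233. DUSP1 was measured at chr3:53839249-53839308 on the minus strand and DUSP5 at chr18:58124264-58124323 on the plus strand. The DUSP4 probe is listed as unmapped. The 5 DUSP6 probes were shifted by 1 base each over chr4:68381576-68381639 on the minus strand, so they are not independent measurements. The 4 DUSP10 probes spanned chr16:51392350-51392503 on the plus strand. Exon and intron annotation of this build was not used here.

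**Figure D1:**
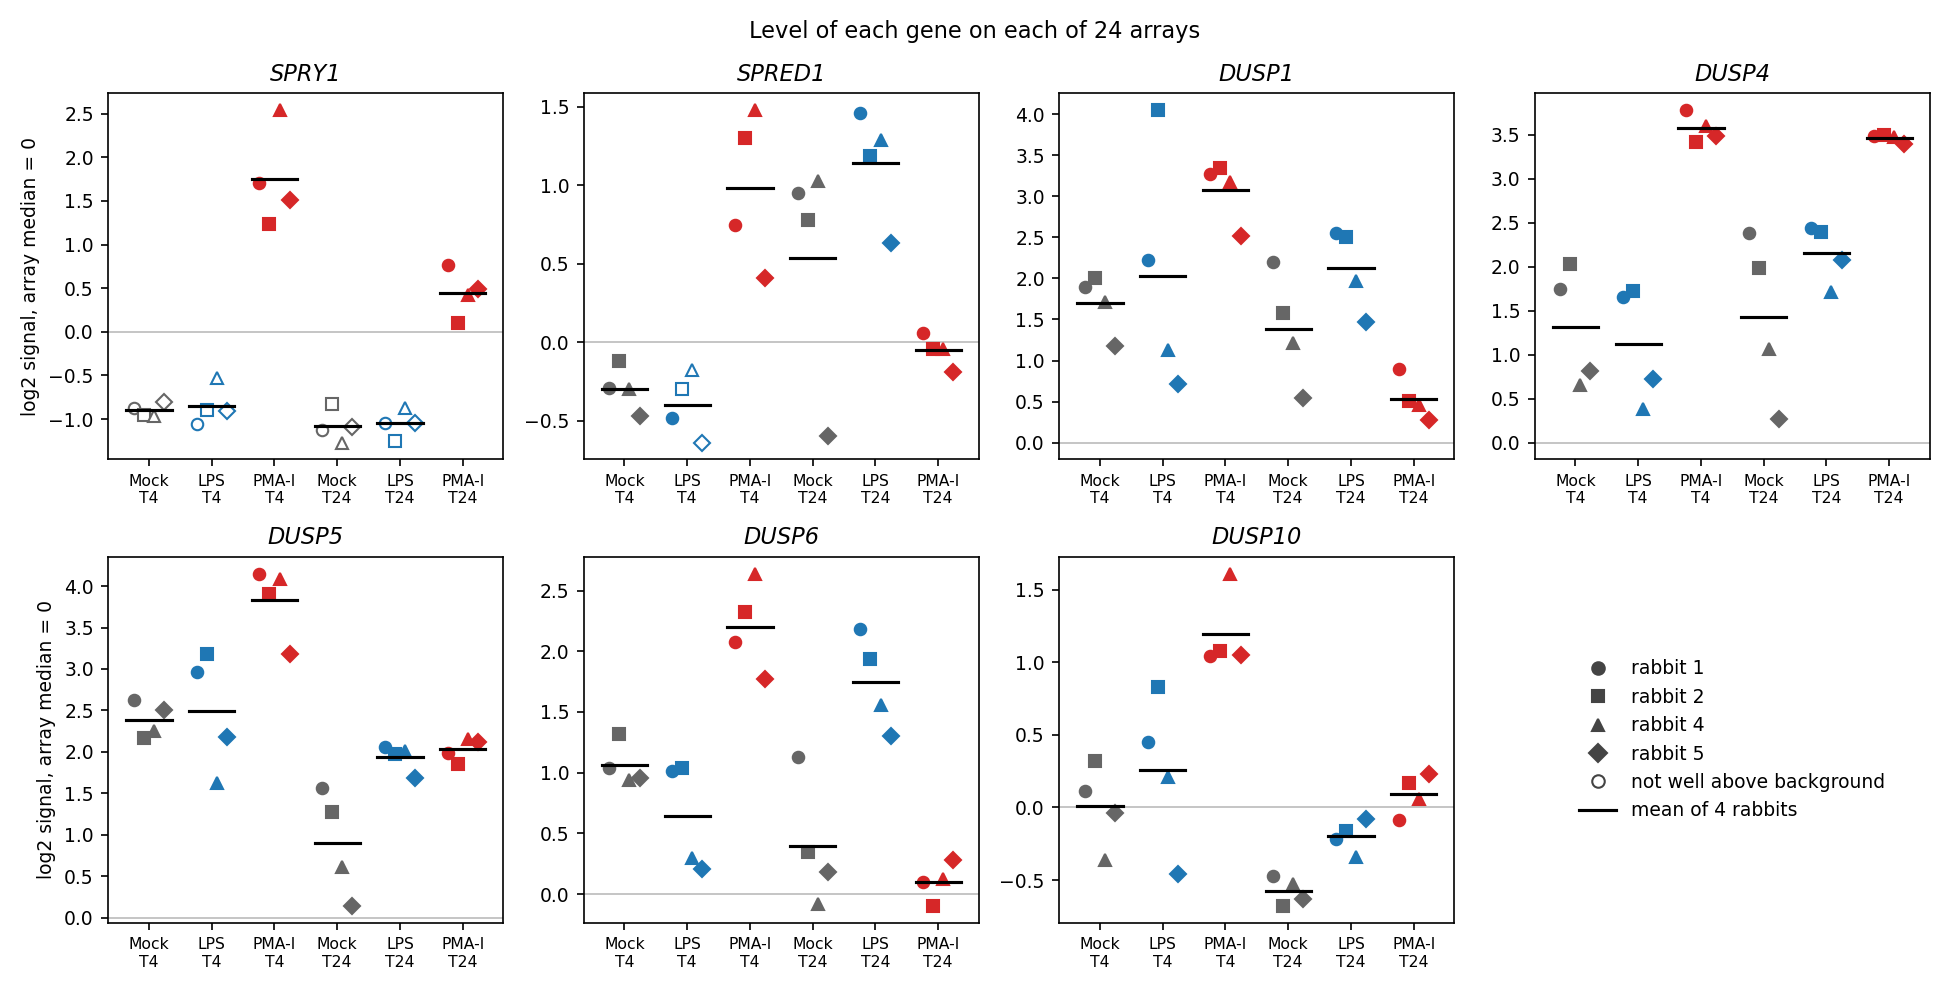
Level of each gene (log2 signal, array median at 0) on the 24 arrays, by stimulation and time, with 1 symbol per rabbit, open where no probe of the gene was well above background, and a line at the mean of 4 rabbits (PMA-I is PMA-Ionomycin). All 4 PMA-Ionomycin T4 arrays lie above all 4 mock T4 arrays for every gene, and those of SPRY1, DUSP4, DUSP5 and DUSP10 do so at T24 too.

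PMA-Ionomycin at T4 raised all 7 genes against mock-stimulated cells, from 2.20-fold for DUSP6 to at least 6.01-fold for SPRY1, whose mock level is a bound. Over all genes tested, 13.4% were called higher in this comparison. The median log2 fold change (FC) of the 7 was 1.38, against 0.05 over all genes. For all 7 the 4 stimulated arrays lay above the 4 mock arrays, whereas 21.4% of all genes with a value on every array of both groups did not overlap.

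SPRY1, an inhibitor of RAS-ERK signalling downstream of receptor tyrosine kinases, was the member that differed most. Its level in mock T4 cells was -0.87, -0.95, -0.96 and -0.81 in rabbits 1, 2, 4 and 5. With PMA-Ionomycin it was 1.70, 1.24, 2.54 and 1.51. The mock arrays lay together below the array median and the stimulated arrays well above it. The log2 FC was 2.65 ± 0.20 (SE, n = 4 per group, adjusted p = 8.97e-10 in limma). SPRY1 was not well above background on any mock or LPS array at either time, so its level there is only a bound. On each such array the bound was the higher of its own signal and the lowest signal of any probe well above background, and against it SPRY1 was at least 6.01-fold higher. With the scanner's processed signal, from which background is subtracted, the log2 FC of SPRY1 was 5.79. Log2 FCs of SPRY1 against mock or LPS cells, in either signal, rest on a level that was not well above background and are not measured sizes.

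SPRED1, which brings neurofibromin to the membrane and so turns RAS off, was at -0.29, -0.12, -0.30 and -0.47 in mock T4 cells and at 0.75, 1.30, 1.48 and 0.41 with PMA-Ionomycin. All stimulated arrays were above the array median and all mock arrays below it. The log2 FC was 1.28 ± 0.27 (SE, n = 4, adjusted p = 0.000972 in limma), and the 2 probes gave 1.26 and 1.29. With the processed signal the log2 FC of SPRED1 was 2.21.

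The nuclear phosphatases followed. DUSP4, which acts on ERK and JNK in the nucleus, was at 1.75, 2.03, 0.66 and 0.82 in mock T4 cells and at 3.78, 3.42, 3.60 and 3.49 with PMA-Ionomycin. Rabbits 1 and 2 were higher than rabbits 4 and 5 in mock cells, and the 4 rabbits lay close together after stimulation. Its log2 FC was 2.26 ± 0.37 (SE, n = 4, adjusted p = 5.25e-05 in limma).

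DUSP5, the nuclear phosphatase specific for ERK, went from 2.62, 2.17, 2.25 and 2.51 in mock T4 cells to 4.15, 3.90, 4.08 and 3.18. Rabbit 5 was the lowest of the stimulated arrays but still above all mock arrays. Its log2 FC was 1.44 ± 0.29 (SE, n = 4, adjusted p = 0.000612 in limma).

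DUSP1, a broad nuclear phosphatase for p38, JNK and ERK, was at 1.89, 2.0, 1.71 and 1.18 in mock T4 cells and at 3.27, 3.34, 3.17 and 2.52 with PMA-Ionomycin. The rise within a rabbit ran from 1.34 to 1.47, the narrowest range of the 7. Its log2 FC was 1.38 ± 0.48 (SE, n = 4, adjusted p = 0.0377 in limma), and this call was lost under 6 of 12 other settings, with adjusted p between 0.0014 and 0.169 over all of them. The shared spread of the model takes in the LPS T4 arrays, where DUSP1 ran from 0.71 to 4.05, and with only the mock and PMA-Ionomycin T4 arrays compared the adjusted p was 0.0014. The reason for the lost calls was not tested.

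DUSP6, the cytoplasmic phosphatase specific for ERK, was at 1.04, 1.32, 0.94 and 0.96 in mock T4 cells and at 2.08, 2.32, 2.64 and 1.77 with PMA-Ionomycin. Its log2 FC was 1.14 ± 0.24 (SE, n = 4, adjusted p = 0.00104 in limma), and the 5 overlapping probes gave 1.04 to 1.20. DUSP10, which acts on p38 and JNK rather than on ERK, went from 0.11, 0.32, -0.36 and -0.04 to 1.04, 1.08, 1.61 and 1.05. Rabbit 4 was the lowest of the mock arrays and the highest of the stimulated ones. Its log2 FC was 1.19 ± 0.20 (SE, n = 4, adjusted p = 5.95e-05 in limma), with 0.89 to 1.51 over its 4 probes, which overlap in part.

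At T24, PMA-Ionomycin left 4 of the 7 genes called higher than mock, DUSP4, SPRY1, DUSP5 and DUSP10, and none called lower. Over all genes tested, 22.1% were called higher and 11.5% lower at this time. The median log2 FC of the 7 was 0.67 against 0.03 over all genes, and the groups of the same 4 genes did not overlap, against 32.2% of all genes.

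DUSP4 was at 3.49, 3.50, 3.47 and 3.39 in rabbits 1, 2, 4 and 5 with PMA-Ionomycin at T24, overlapping with its T4 level. Mock T24 cells were at 2.38, 1.99, 1.07 and 0.27. The stimulated rabbits lay close together, while rabbits 1 and 2 were higher than rabbits 4 and 5 in mock cells, as at T4. It had a log2 FC of 2.03 ± 0.37 (SE, n = 4, adjusted p = 9.15e-05 in limma).

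SPRY1 was at 0.76, 0.10, 0.42 and 0.49 with PMA-Ionomycin at T24, between its T4 level and the mock level. Mock T24 cells were at -1.12, -0.83, -1.27 and -1.09. The log2 FC was 1.52 ± 0.20 (SE, n = 4, adjusted p = 1.16e-06 in limma), and against the background bound SPRY1 was at least 2.56-fold higher. With the processed signal the log2 FC was 3.49.

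DUSP5 was at 1.99, 1.86, 2.15 and 2.12 with PMA-Ionomycin and at 1.57, 1.27, 0.61 and 0.14 in mock T24 cells, a log2 FC of 1.13 ± 0.29 (SE, n = 4, adjusted p = 0.00349 in limma). All its stimulated arrays at T24 lay below its mock arrays of T4, and the mock arrays of T24 lay lower still. DUSP10 was at -0.09, 0.17, 0.06 and 0.23 against -0.47, -0.68, -0.53 and -0.63 in mock cells, a log2 FC of 0.67 ± 0.20 (SE, n = 4, adjusted p = 0.00877 in limma) that was 1.26 with the processed signal.

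DUSP1, SPRED1 and DUSP6 did not pass the test against mock at T24. DUSP1 was at 0.90, 0.51, 0.46 and 0.28 with PMA-Ionomycin, the lowest of its 6 groups by mean, and at 2.20, 1.58, 1.21 and 0.54 in mock cells. It was lower in 4 of 4 rabbits, with a log2 FC of -0.85 (95% interval -1.83 to 0.14, adjusted p = 0.204 in limma) and overlapping groups.

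SPRED1 was at 0.06, -0.04, -0.04 and -0.19 with PMA-Ionomycin and at 0.95, 0.78, 1.03 and -0.60 in mock T24 cells. Its log2 FC was -0.59 (95% interval -1.15 to -0.03, adjusted p = 0.108 in limma). Rabbit 5 had the lowest mock level and was the only rabbit in which SPRED1 was higher with PMA-Ionomycin. Without it the log2 FC was -0.92 (adjusted p = 0.000178, limma), and with rabbit as a block, in all 4 rabbits, the adjusted p was 0.0209. DUSP6 was at 0.10, -0.10, 0.12 and 0.28 against 1.13, 0.35, -0.08 and 0.18 in mock cells, with a log2 FC of -0.30 (95% interval -0.80 to 0.21, adjusted p = 0.443 in limma), higher in 2 rabbits and lower in 2.

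**Figure D2:**
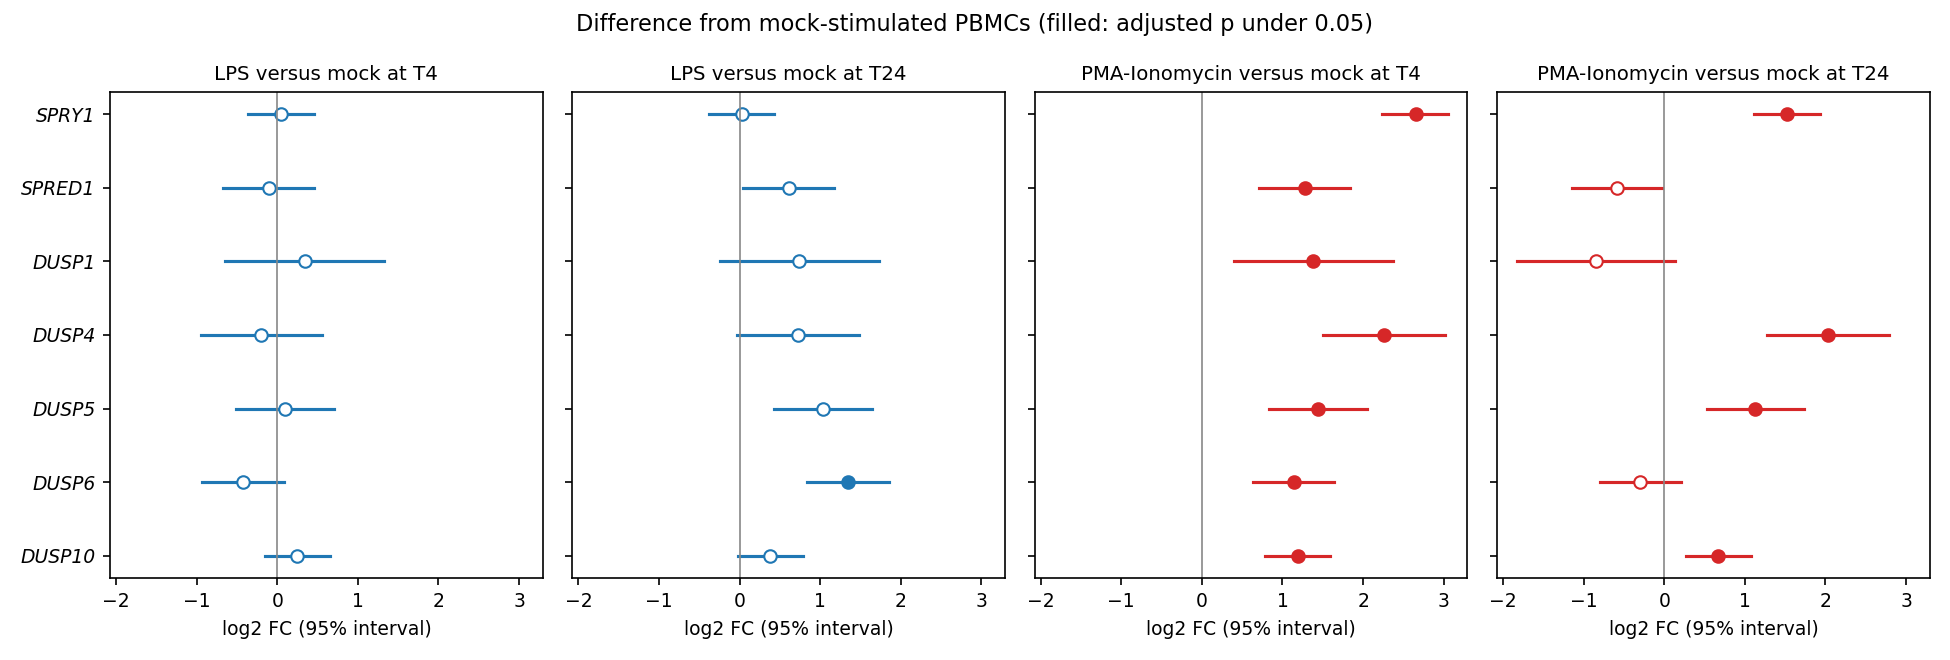
Log2 FC of each gene against mock-stimulated PBMCs of the same time, with its 95% interval (limma, 4 rabbits per group), filled where the adjusted p was under 0.05. No gene is filled for LPS at T4, only DUSP6 for LPS at T24, all 7 for PMA-Ionomycin at T4, and SPRY1, DUSP4, DUSP5 and DUSP10 for it at T24.

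The change between times was tested as the interaction of stimulation and time. For PMA-Ionomycin it was called with a negative sign for 4 of the 7 genes, where 8.16% of all genes were called in this direction. For 3 of them, DUSP1, SPRED1 and DUSP6, the effect was smaller at T24 than at T4. DUSP1 had an interaction of -2.23 ± 0.67 on the log2 scale (SE, adjusted p = 0.0174 in limma), and without rabbit 1 or without rabbit 4 this call was lost (highest adjusted p 0.119). SPRED1 had -1.87 ± 0.38 (adjusted p = 0.000767) and DUSP6 -1.43 ± 0.35 (adjusted p = 0.00322, both limma). With the processed signal these 3 interactions were -2.86, -3.38 and -2.05. SPRY1 was the fourth (adjusted p = 0.00399 in limma), but its mock level is only a bound at both times, so whether its effect became smaller was not measurable. Its PMA-Ionomycin levels themselves did not overlap, with all 4 arrays of T24 below all 4 of T4.

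The other 3 genes gave no called interaction. DUSP4 had -0.22 (95% interval -1.30 to 0.85), DUSP5 -0.31 (95% interval -1.16 to 0.55) and DUSP10 -0.52 (95% interval -1.09 to 0.06). The intervals of all 3 reach below -1, so a decline of that size was not shown to be absent.

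**Figure D3:**
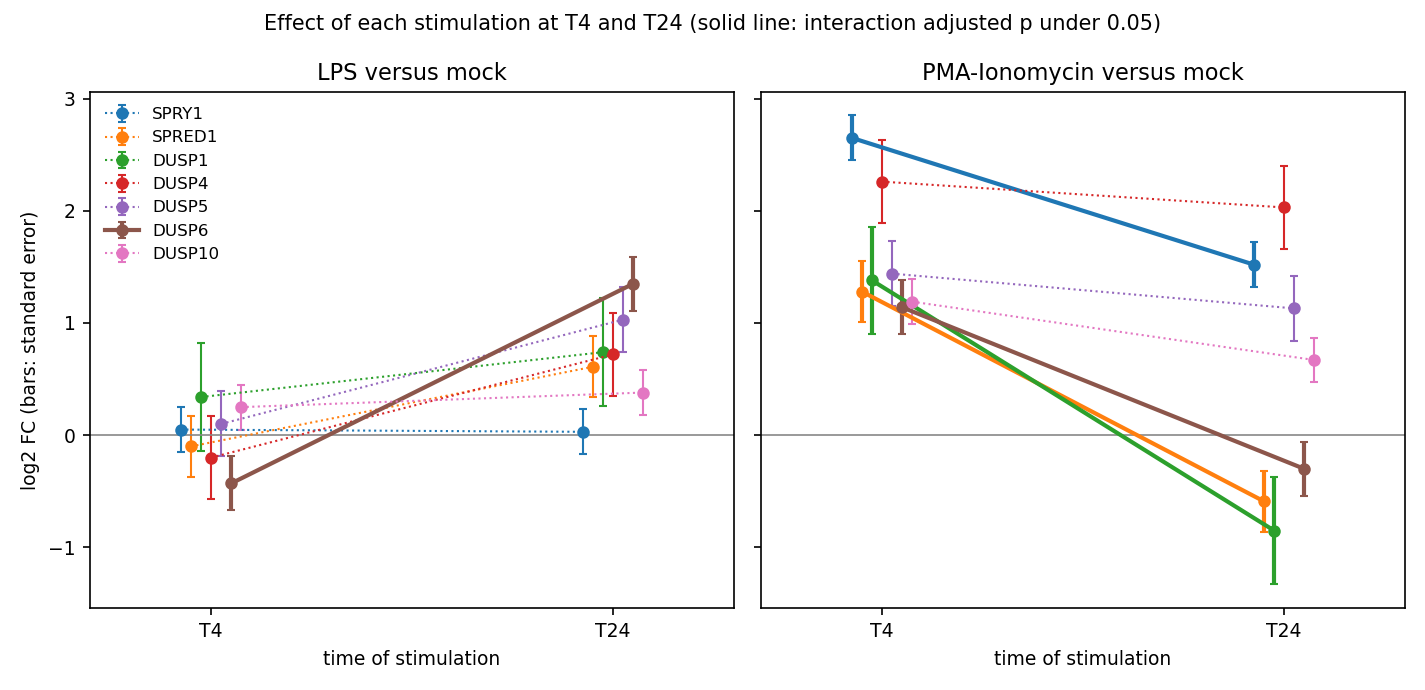
Log2 FC of each gene against mock at T4 and T24 for LPS and PMA-Ionomycin (points; bars are standard errors, 4 rabbits per group), with solid lines where the interaction of stimulation and time had an adjusted p under 0.05. With PMA-Ionomycin the lines of DUSP1, SPRED1, DUSP6 and SPRY1 go down and are solid (for SPRY1 against a mock level at background), and with LPS the DUSP6 line goes up and is solid.

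LPS at T4 changed none of the 7 genes in limma, and none had an unadjusted p under 0.05. Over all genes tested, 1.02% were called in either direction. The log2 FCs ran from -0.43 for DUSP6 to 0.34 for DUSP1, the groups overlapped for every member (7.33% of all genes did not overlap), and the median was 0.05 against 0.06 over all genes.

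DUSP1 was at 2.22, 4.05, 1.13 and 0.71 in rabbits 1, 2, 4 and 5 with LPS at T4. Rabbit 2 had the highest DUSP1 level of the series and rabbits 4 and 5 lay below every mock T4 array, so the rabbits did not move together. The interval of its log2 FC was wide, -0.65 to 1.32. DUSP6 was at 1.01, 1.04, 0.30 and 0.21 and was lower than mock in 4 of 4 rabbits, with a log2 FC of -0.43 (95% interval -0.93 to 0.08, adjusted p = 0.467 in limma). DUSP4, at 1.65, 1.72, 0.38 and 0.72, was also below mock in each rabbit, with differences of -0.31 to -0.09 and an adjusted p of 0.838 in limma.

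DUSP5 was at 2.96, 3.18, 1.63 and 2.18 and DUSP10 at 0.45, 0.83, 0.21 and -0.46 with LPS at T4. Rabbits 1 and 2 lay above their own mock arrays for both genes and rabbit 5 below, and the groups overlapped. SPRED1, at -0.48, -0.30, -0.18 and -0.64, had a probe well above background on 1 of the 4 arrays. SPRY1, at -1.06, -0.90, -0.53 and -0.91, was well above background on none.

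With LPS at T24, DUSP6 was the only member called, and it was higher. Its level was 2.18, 1.94, 1.56 and 1.30 with LPS, above all mock arrays of that time. Over all genes tested, 0.643% were called higher in this comparison. The log2 FC was 1.35 ± 0.24 (SE, n = 4, adjusted p = 0.00345 in limma), the rise within a rabbit ran from 1.05 to 1.65, and the 5 overlapping probes gave 1.27 to 1.43. The call was lost when only the 8 arrays compared were fitted (adjusted p = 0.126) and without rabbit 2 (adjusted p = 0.102) or rabbit 4 (adjusted p = 0.0843), with log2 FCs of 1.25 to 1.35.

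DUSP5, DUSP1, DUSP4, SPRED1 and DUSP10 were each higher with LPS in 4 of 4 rabbits at T24 without passing the test. DUSP5 was at 2.06, 1.98, 2.01 and 1.69, above every mock T24 array, with a log2 FC of 1.03 ± 0.29 (SE, n = 4, adjusted p = 0.0928 in limma). With rabbit as a block its adjusted p was 0.0287. DUSP1, at 2.55, 2.51, 1.97 and 1.47, had a log2 FC of 0.74 (95% interval -0.24 to 1.73, adjusted p = 0.655 in limma).

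DUSP4, at 2.44, 2.39, 1.71 and 2.08, had 0.72 (95% interval -0.03 to 1.48, adjusted p = 0.496 in limma), and the rise within a rabbit ran from 0.06 to 1.81. SPRED1, at 1.46, 1.19, 1.29 and 0.63, had 0.61 (95% interval 0.04 to 1.17, adjusted p = 0.407 in limma). DUSP10, at -0.22, -0.16, -0.34 and -0.08, had 0.38 (95% interval -0.02 to 0.79, adjusted p = 0.505 in limma), although its 4 LPS arrays lay above the 4 mock arrays.

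SPRY1, at -1.04, -1.25, -0.87 and -1.04 with LPS at T24, was again not well above background. The median log2 FC of the 7 genes was 0.72 against -0.03 over all genes. Groups did not overlap for DUSP5, DUSP6 and DUSP10, 3 of 7, where 4.35% of all genes did not overlap.

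The LPS effect on DUSP6 changed with time, from -0.43 at T4 to 1.35 at T24. The interaction was 1.78 ± 0.35 on the log2 scale (SE, adjusted p = 0.0127 in limma), where 1.71% of all genes were called higher. Without rabbit 2 or without rabbit 4 the call was lost (highest adjusted p 0.18). For the other 6 members the interaction ran from -0.02 for SPRY1 to 0.94 for DUSP5 and was not called.

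PMA-Ionomycin and LPS were also compared with each other. At T4, 6 of the 7 genes were higher with PMA-Ionomycin, where 17.7% of all genes were called higher, and the groups of the same 6 did not overlap (24.8% of all genes). DUSP4 differed by 2.45 ± 0.37 (SE, n = 4, adjusted p = 1.64e-05 in limma), DUSP6 by 1.56 ± 0.24 and SPRED1 by 1.38 ± 0.27 on the log2 scale, and SPRY1 was at least 5.80-fold higher. SPRED1 was well above background on only 1 of the 4 LPS arrays, and with the processed signal it differed by 2.54 and SPRY1 by 5.48. DUSP5 differed by 1.34 and DUSP10 by 0.94. DUSP1 differed by 1.05 (95% interval 0.06 to 2.03, adjusted p = 0.117 in limma), and the LPS array of rabbit 2 lay above all PMA-Ionomycin arrays. Without rabbit 2 the difference was 1.63 (adjusted p = 0.0081), and with rabbit as a block the adjusted p was 0.0214.

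At T24 the members split between the stimuli. SPRY1 and DUSP4 were higher with PMA-Ionomycin, and DUSP6, DUSP1 and SPRED1 were higher with LPS. Over all genes, 23.6% were called higher and 12.5% lower with PMA-Ionomycin, and 36.2% did not overlap. DUSP6 was lower with PMA-Ionomycin than with LPS by a log2 FC of -1.65 ± 0.24 (SE, n = 4, adjusted p = 6.67e-06 in limma). DUSP1 had -1.59 ± 0.48 (adjusted p = 0.00984), a call lost without rabbit 1 or rabbit 4, and SPRED1 had -1.19 ± 0.27 (adjusted p = 0.00101). With the processed signal these were -2.60 for DUSP6, -2.35 for DUSP1 and -2.15 for SPRED1.

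For these 3 genes all PMA-Ionomycin arrays lay below all LPS arrays. DUSP4 was higher with PMA-Ionomycin by 1.31 ± 0.37 (adjusted p = 0.00609, limma), a call lost under quantile normalization and under the processed signal (highest adjusted p 0.0644). SPRY1 was at least 2.56-fold higher (log2 FC 3.64 with the processed signal, against LPS arrays at background). DUSP5 differed by 0.10 (95% interval -0.51 to 0.71) and DUSP10 by 0.29 (95% interval -0.11 to 0.70), both with overlapping groups.

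The order of the 6 groups differed between members. PMA-Ionomycin at T4 gave the highest mean level for SPRY1, DUSP1, DUSP4, DUSP5, DUSP6 and DUSP10, whereas SPRED1 was highest with LPS at T24 (1.14 ± 0.36, SD, n = 4) ahead of PMA-Ionomycin at T4 (0.98 ± 0.49), and these 2 groups overlapped. PMA-Ionomycin at T4 stood clear of the next group for SPRY1 and DUSP10, and overlapped with it for DUSP1, DUSP4 and DUSP6. For DUSP5 its lowest array lay just above the highest array of the next group, both 3.18 when rounded. For DUSP4 the next group was PMA-Ionomycin at T24, for DUSP5 LPS at T4, and for DUSP1 and DUSP6 LPS at T24. PMA-Ionomycin at T24 gave the lowest mean for DUSP1 (0.53 ± 0.26) and DUSP6 (0.10 ± 0.16), and both overlapped with mock at T24.

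Mock-stimulated cells changed between T4 and T24 as well, which moves the reference of each time. DUSP5 fell by a log2 FC of -1.49 ± 0.29 (SE, n = 4, adjusted p = 0.00093 in limma), with 4 of 4 rabbits lower and no overlap. DUSP10 did not overlap either, where 14.2% of all genes did not. SPRED1 rose by 0.83 ± 0.27 (adjusted p = 0.0465), although rabbit 5 was lower at T24, and without rabbit 5 the rise was 1.15. The SPRED1 call was lost under 7 of 12 other settings, with adjusted p up to 0.3, and its log2 FC was 1.45 with the processed signal. Over all genes, 7.42% were called higher and 5.14% lower at T24.

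DUSP10 and DUSP6 had log2 FCs of -0.59 (adjusted p = 0.0515) and -0.67 (adjusted p = 0.0814) in mock cells and were called with rabbit as a block, with adjusted p of 0.0448 and 0.0357 in limma. DUSP10 was also called under 4 other settings, and DUSP6 without rabbit 1 (-0.92, adjusted p = 0.028 in limma). DUSP1 had -0.31 and DUSP4 0.11, with intervals of -1.30 to 0.67 and -0.64 to 0.87. SPRY1 was not well above background at either time.

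Over the 24 arrays the levels of the members were related to different extents. Pearson r was 0.88 for DUSP5 and DUSP10, 0.81 for DUSP1 and DUSP6, 0.78 for SPRY1 and DUSP10 and 0.76 for SPRY1 and DUSP4. It was 0.16 for SPRED1 and DUSP10 and 0.18 for SPRED1 and DUSP5, the lowest of the 21 pairs. The arrays share rabbits and treatments, so these values describe the pattern only.

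Among 6294 named genes well above background on all arrays of a group, those with a pattern most like a member over the 24 arrays were found in the same way. A candidate could be at background in other groups, and SPRY1 was well above background on the 8 PMA-Ionomycin arrays only, so its r sets those arrays against values at background. For SPRY1 they were CRTAM (r = 0.973), TBX3 (0.966) and ACP3 (0.963), and for SPRED1 HLX (0.917), VPS26A (0.899) and LONRF3 (0.878). DUSP1 was closest to ARHGAP10 (0.895), IER3 (0.89) and ITGA1 (0.857), and DUSP4 to SLC7A6 (0.924), ERO1A (0.921) and ISCA1 (0.907). DUSP5 was closest to OSM (0.945), SLC7A5 (0.938) and ARID5A (0.927), DUSP6 to HBEGF (0.946), RUNX1 (0.904) and RNF19B (0.901), and DUSP10 to SAR1A (0.926), SLC7A1 (0.924) and FOSL1 (0.924).

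The array files describe 5 further overlapping probes as sprouty 2, with an identifier that the RefSeq table does not hold, so they were kept apart from the members. Only 2 of them were well above background on all 24 arrays, and the other 3 were so on 1 array at most. Their mean had log2 FCs of 0.31 (LPS, T4), -0.17 (LPS, T24), 0.08 (PMA-Ionomycin, T4) and -0.12 (PMA-Ionomycin, T24), with adjusted p of 0.217 to 0.793 in limma. The brightest of the 5 probes gave mean differences of 0.47, -0.48, -0.11 and -0.67 in the same order, and with the 2 probes above background alone the log2 FC for LPS at T24 was -0.41 (adjusted p = 0.583, limma). These 2 probes overlap, yet their mean levels in mock T24 cells were 5.48 and 0.52. The 5 probes therefore gave no single level for sprouty 2.

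Other genes around ERK were taken from lists of the pathway. Against mock, 13.4% of all genes were called higher and 9.35% lower with PMA-Ionomycin at T4, and 22.1% higher and 11.5% lower at T24. SPRED2, the relative of SPRED1 and the only one found of 4 further Sprouty and SPRED genes, rose with PMA-Ionomycin at T4 (log2 FC 0.82 ± 0.20, SE, adjusted p = 0.0041 in limma) and not at T24. DUSP7, an ERK phosphatase close to DUSP6 and the only one found of 4 further MAP kinase phosphatases, fell with PMA-Ionomycin at T24 (log2 FC -0.48 ± 0.13, adjusted p = 0.00673, limma). The array files describe its probe as DUSP6, under a gene number that RefSeq gives to DUSP7. Of the atypical dual-specificity phosphatases, 7 of 13 were found. Among them DUSP13B rose with LPS at T24 (log2 FC 2.14 ± 0.23, adjusted p = 9.47e-06, limma), with 4 of 4 LPS arrays and 1 of 4 mock arrays well above background. DUSP14 rose with PMA-Ionomycin at T4 (0.81) and T24 (0.50), with 3 of 4 stimulated arrays well above background at each time against 2 of 4 mock arrays at T4 and 1 of 4 at T24, and DUSP23 fell at T24 (-0.40).

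Of 8 RAS activators found of 12, 2 rose and 2 fell with PMA-Ionomycin at each time, and at T24 the share that rose was close to the 22.1% of all genes. RASGRP2, an exchange factor that loads RAS-family proteins, had log2 FCs of -1.78 ± 0.27 at T4 and -2.30 ± 0.27 at T24. RRAS2, a RAS-family GTPase, had 1.12 ± 0.23 and 0.80 ± 0.23, and GRB2, the adaptor that links receptors to RAS, had -1.29 ± 0.27 at T24. Of 4 RAS inactivators found of 9, only RASAL2 was called against mock, at T4 with PMA-Ionomycin (0.68 ± 0.17).

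Of 8 genes of the ERK cascade found of 12, MAP2K1, which encodes MEK1, was higher at T4 (0.89 ± 0.30, adjusted p = 0.0355, limma) together with BRAF (0.50). At T24 LAMTOR1, part of the scaffold that holds MEK on lysosomes, was lower (-1.17 ± 0.26) and KSR2, a scaffold of the cascade, was at least 2.07-fold higher. LAMTOR1 was also lower with LPS at T4 (-1.13 ± 0.26, adjusted p = 0.0419, limma). Of 6 genes of the p38 and JNK cascades found of 11, MAPK8 (0.59) and MAP2K4 (0.44) were higher with PMA-Ionomycin at T4 and MAP2K4 (0.43) at T24. MAPK8 was well above background on 1 of 4 mock T4 arrays.

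Of 13 genes that are known to be induced by ERK or to act right after it, 9 were found, and 4 rose and 1, RPS6KA1, fell with PMA-Ionomycin at T4, where 13.4% and 9.35% of all genes did. The transcription factor EGR1 had a log2 FC of 2.33 ± 0.13 (adjusted p = 7.76e-12, limma), FOSL1 1.63 ± 0.19 and PHLDA1 1.49 ± 0.33. The median of the list was 0.42 against 0.05 over all genes. FOSL1 and PHLDA1 were each well above background on 2 of 4 mock arrays there. At T24 FOSL1 alone was called, but it was well above background on 1 of 4 stimulated arrays and on no mock array, so no fold is given. EGR1 had an interaction of -2.23 ± 0.18 (adjusted p = 4.23e-09). LPS left 9 of 9 uncalled at T24, where 1.22% of all genes were called in either direction, and at T4, where 1.02% were, only RPS6KA1 was lower (-0.79 ± 0.18). No other gene of these lists was called with LPS against mock.

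**Figure D4:**
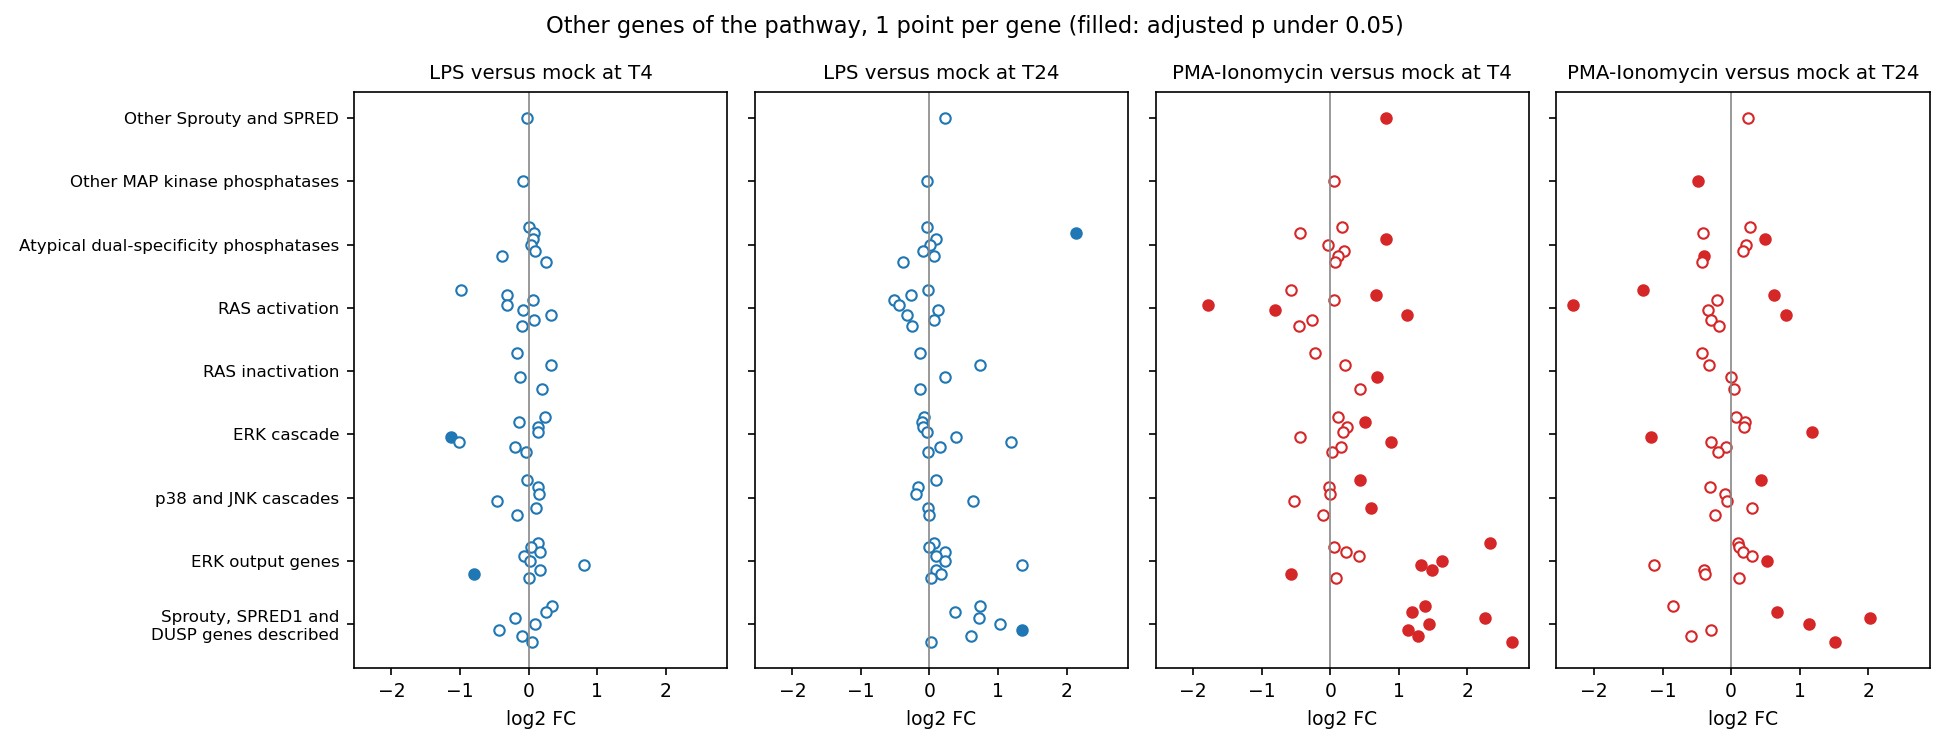
Log2 FC against mock of the genes found in each pathway list (1 point per gene, limma, filled where the adjusted p was under 0.05), with the 7 Sprouty, SPRED1 and DUSP genes in the bottom row. With PMA-Ionomycin at T4 all 7 bottom points are filled and to the right of 0, and 4 of the 9 ERK output genes are filled to the right.

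Markers of cell types moved between the groups too. In bulk PBMCs, fewer cells of a type and less RNA per cell cannot be told apart. The summed signal of 5 monocyte markers found of 8, in multiples of the array median, ran from 132 to 294 in mock T4 cells, from 52.9 to 99.1 with LPS and from 33.3 to 50.1 with PMA-Ionomycin. At T24 it ran from 327 to 802 in mock cells, from 293 to 697 with LPS and from 57.1 to 113 with PMA-Ionomycin. Of the 5 monocyte markers, CD14 and CSF1R were called lower than mock at T4 with each stimulus, and CD68, MPEG1 and ITGAM were not. The log2 FC of CD14 was -1.55 ± 0.33 with LPS and -3.01 ± 0.33 with PMA-Ionomycin. At T24 all but ITGAM were called lower than mock with PMA-Ionomycin. In mock cells all but ITGAM were called higher at T24 than at T4. Between the stimuli, CD14, CSF1R and CD68 were called lower with PMA-Ionomycin than with LPS at T24. At T4 CD14 was lower (log2 FC -1.46 ± 0.33) and CD68 higher (1.26 ± 0.47), and the other 3 were not called.

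B cell markers, 4 found of 7, ran from 239 to 543 in mock T4 cells and from 15.2 to 35.4 with PMA-Ionomycin, and at T24 from 140 to 651 and from 97.4 to 226. With PMA-Ionomycin at T4 all of them but CD22 were called lower than mock. At T24 MS4A1 (log2 FC -2.63 ± 0.23), BLNK (-2.64 ± 0.36) and CD22 (-0.59 ± 0.18) were called lower, and CD79B was not. T cell markers, 6 found of 9, had a sum between 8.97 and 20.7 in every group. Of these, CD28 was at least 2.42-fold higher with PMA-Ionomycin than mock at T4. At T24 CD5 was higher (log2 FC 1.08 ± 0.35, adjusted p = 0.0168, limma) and CD4 was called lower, with 2 of 4 mock arrays and no stimulated array well above background, so no fold is given. Of the NK cell markers PRF1 was found. Against mock it was lower with PMA-Ionomycin at T4 (log2 FC -0.76 ± 0.26, adjusted p = 0.0328, limma) and higher at T24 (0.96 ± 0.26, adjusted p = 0.00442), where it ran from 2.92 to 3.95 against 1.26 to 2.15. Platelet markers, 2 found of 5, ran from 9.01 to 29.1 in mock T4 cells and from 1.44 to 5.85 with PMA-Ionomycin at T4. At T24 they ran from 1.02 to 2.32 in mock cells and from 1.05 to 1.27 with PMA-Ionomycin.

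Neutrophil markers, 3 found of 5, were highest in mock T24 cells (6.87 to 21.3), and CAMP (log2 FC -1.92 ± 0.35) and MPO (-1.63 ± 0.25) were called lower with LPS at T24, as was MPEG1 of the monocyte markers (-2.17 ± 0.41). With PMA-Ionomycin at T24 CAMP was at least 14.7-fold lower than mock. MPO (-1.58 ± 0.25) and MPEG1 (-2.81 ± 0.41) were called lower there too. The neutrophil marker MMP8 was called with neither stimulus at T24. Erythrocyte markers, 2 found of 5, ran from 1.48 to 3.01. The part of these shifts in the differences of the 7 genes was not tested.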

How the data were processed

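PBMCs of 4 rabbits in 6 groups were measured on 24 one-colour Agilent arrays, 1 per culture. The authors deposited scanner output in which the median signal is a spot intensity with no correction or scaling (Agilent Feature Extraction 10.7.3.1), and log2 values equal to the log2 median signal less a constant of the array (column medians -1.11 to -0.811). Following the study's methods, median signals were log2-transformed and centred on the array median, spots were averaged per probe and probes per gene. Control spots and outlier spots were left out. Probes were named by gene name, RefSeq accession or gene number through RefSeq. A gene was well above background where at least 1 of its probes was, by the scanner's flag.

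Group means were fitted over all 24 arrays with limma 3.58.1 (R 4.3.3, data.table version 1.17.8), with empirical Bayes and Benjamini-Hochberg adjustment over 28919 genes. The script was tested on simulated data. Sequences and figures were made with Python 3.11.15, pandas 2.3.3 and matplotlib 3.10.9. The members, lists and tests were chosen with earlier results of these data known. Every member was described. Other genes were taken from lists, naming at most 3 called genes of each. Marker lists covered monocytes, B, T and NK cells, platelets, neutrophils and erythrocytes.

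The rabbit numbers name the same animals in every group. Deviations from the group means correlated with a median r of 0.228 for arrays of the same rabbit (60 pairs) and -0.0757 for others (180 pairs). The study's methods name no pairing, so a fit with rabbit as a block served as an alternative. Further alternatives were the processed signal (75th percentile at 0), quantile normalization, normexp correction (offset 50), the deposited table, a filter on dim probes, only the arrays compared, slide as a block, and leaving out each rabbit. The number of arrays limits the precision.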

Additional observations from a re-analysis of the deposited data

Results flagged for a closer look

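DUSP10 in PMA-Ionomycin T4 cells had 1 rabbit apart from the others. Rabbit 4 was at 1.61 and the other 3 between 1.04 and 1.08, a gap of 0.943 of the range, above Dixon's limit for 4 samples. SPRED1 in mock T24 cells had rabbit 5 at -0.60 and the others between 0.78 and 1.03, a gap of 0.846 of the range. These 2 were found among 48 groups of 4 values, and chance gives about 1 in 20. Without rabbit 5 the PMA-Ionomycin effect on SPRED1 at T24 went from -0.59 to -0.92 on the log2 scale and passed the test.

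The effect of a stimulation differed between T4 and T24, by the interaction test in limma, for 5 pairs of a gene and a stimulus. With LPS it was DUSP6 (1.78, adjusted p = 0.0127). With PMA-Ionomycin it was DUSP1 (-2.23, adjusted p = 0.0174), SPRED1 (-1.87, adjusted p = 0.000767), DUSP6 (-1.43, adjusted p = 0.00322) and SPRY1 (-1.13, adjusted p = 0.00399), all on the log2 scale. The mock level of SPRY1 was not well above background at either time, so its interaction does not measure a change in the size of its effect.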

How the results depend on the processing

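Under 12 alternatives, 23 of the 30 called values of members kept their call in all, and the other 7 are given beside the results. The number of members called with LPS at T24 went from 1 to 0 with only the arrays compared, to 2 with rabbit as a block, and to 0 to 1 without a rabbit. For the LPS interaction it was 0 to 1 without a rabbit. For mock cells between times, 2 became 1 with normexp, 4 with rabbit as a block, 1 with slide as a block, 3 with the deposited table or the dim filter, and 1 to 2 without a rabbit. The block changed no call other than those given beside the results. Signs turned only for values that were not called. With quantile normalization these were SPRY1 with LPS at T4 (-0.08) and in the LPS interaction (0.13), DUSP5 between stimuli at T24 (-0.10) and the sprouty 2 probes with PMA-Ionomycin at T4 (0) and between stimuli at T24 (-0.08). With the processed signal they were SPRY1 with LPS at T24 (-0.15) and in mock cells between times (0.29), DUSP5 between stimuli at T24 (-0.17) and the sprouty 2 probes (-0.04 and -0.25). With normexp they were SPRY1 (-0.06 with LPS at T4, 0.09 in the interaction), DUSP10 in the LPS interaction (-0.03), DUSP5 between stimuli at T24 (-0.08) and the sprouty 2 probes (-0.04 and -0.08). The deposited table gave -0.06 for DUSP5 and -0.11 for the sprouty 2 probes between stimuli at T24, the dim filter -0.06 for the sprouty 2 probes with PMA-Ionomycin at T4, and the slide block 0.03 for SPRY1 in the LPS interaction. Without a rabbit, the ranges that crossed 0 were -0.08 to 0.13 (SPRY1, LPS T4), -0.24 to 0.64 (DUSP1, LPS T4), -0.20 to 0.34 (DUSP5, LPS T4), -0.10 to 0.18 (SPRY1, LPS T24), -0.01 to 0.17 (DUSP5) and 0 to 0.11 (sprouty 2 probes) between stimuli at T24, -0.12 to 0.13 (SPRY1) and -0.15 to 0.30 (DUSP10) in the LPS interaction, -0.44 to 0.01 (DUSP4, PMA-Ionomycin interaction) and -0.06 to 0.33 (DUSP4, mock between times). The deposited table gave SPRED1 with PMA-Ionomycin at T24 an adjusted p of 0.0311, DUSP10 in mock cells was also called under 4 settings besides the block, and the processed signal gave the sprouty 2 probes -0.75 between stimuli at T4 (adjusted p = 0.00805, limma). The processed signal moved 15 of the 30 called values by over 1.5 times as a fold, by 0.59 to 3.14 on the log2 scale, most for SPRY1 with PMA-Ionomycin at T4 (2.65 to 5.79), and no other setting moved any by that much. It moved the median of all genes by -0.37 to 0.16, and the deposited table by up to -0.16. The causes were not tested. Signal near background limits SPRY1 in mock and LPS cells.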
